A study of Mus musculus with 4 samples.

Results

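The urokinase system of PyMT-A mouse mammary tumour cells was examined through 5 genes, taken from the table by their symbols: Plau, Plaur, Plat, Serpine2 and Serpinb2. These are 5 of the 33677 gene symbols in the deposited count table, and all 5 were among the 13299 genes with enough counts to be tested. Poly(A) RNA was sequenced from 4 libraries of cultured cells of FVB/NJ origin. The 2 vector libraries came from PyMT-A cells infected with the PMSCV-puro virus, which carries no ligand, and the 2 Jagged1 libraries from PyMT-A cells infected with the PMSCV-Jagged1 virus, which carries the Notch ligand Jagged1. All 4 were grown in the same serum-containing medium. The labels do not say whether a line was a clone or a pool, nor whether the libraries of a line came from separate cultures. Every p here thus rests on the spread among 4 samples alone, and that spread may be technical.

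Urokinase, encoded by Plau, and tissue-type plasminogen activator, encoded by Plat, are secreted serine proteases that cut plasminogen into plasmin, a broad protease that dissolves fibrin and matrix proteins. The receptor encoded by Plaur is held in the membrane by a lipid anchor and keeps urokinase at the cell surface. Serpins are suicide inhibitors that trap such proteases. In mammary tumours urokinase and its inhibitors are known from work on invasion. The counts measure RNA only, so protease activity and the amount of each protein were not measured.

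The libraries held between 12136227 and 20835208 counts. Jag1, the transduced gene, was at 10.5 and 9.12 CPM (counts relative to library size, scaled by TMM factors) in the vector libraries and at 275 and 324 CPM in the Jagged1 libraries, which matches the labels (log2 fold change 4.93 ± 0.20, SE; edgeR adjusted p = 0.0111). It was the 1 gene past the adjusted threshold of 0.05, or 0.00752% of those tested, and without vector 1 or vector 2 its adjusted p was 0.24 and 0.153. Of 11 epithelial markers 9 were tested, with Krt8 at 1050 ± 164 CPM and Epcam at 879 ± 60.2 CPM in vector (SD, n = 2). The keratin genes Krt19 and Krt5 had at most 2 counts in any library. Krt14 was at 453 and 225 CPM in vector 1 and 2 and at 741 and 357 CPM in Jagged1 1 and 2. The epithelial markers together summed to between 4500 and 5240 CPM per library, but Jagged1 2 stood apart in some fibroblast markers. The 10 fibroblast markers summed to 4.89 and 7.41 CPM in vector 1 and 2, 10.7 CPM in Jagged1 1 and 70.3 CPM in Jagged1 2. Most of the excess was in Col1a1, Col1a2, Col3a1 and Pdgfrb, at 27.2, 20.2, 5.99 and 7.44 CPM in Jagged1 2. Col1a2 had 280 counts in Jagged1 2 and 0 in the other libraries. Pdgfra was higher in Jagged1 1 (8.03 CPM) than in Jagged1 2 (6.72 CPM), and Lum and Thy1 had 0 counts in Jagged1 2. The 12 leukocyte markers, 11 of them in the table, summed to 1.72 and 10.7 CPM in vector 1 and 2 and to 1.89 and 11.5 CPM in Jagged1 1 and 2. Among them Lyz2 had 71 counts in vector 2, 89 in Jagged1 2 and 0 in the others, while 3 markers were at 0 throughout. In bulk RNA, fewer cells of a type and less RNA per cell cannot be told apart. The part of these marker transcripts in the results below was not tested.

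None of the 5 members passed the adjusted threshold, so all that follows on them describes values that edgeR's test did not separate from the replicate spread once adjusted over all genes. At an unadjusted p under 0.05 stood 3 of the 5, Serpine2 higher and Plaur and Serpinb2 lower in Jagged1 cells, where 1.8% of all tested genes met that rule as higher and 2.15% as lower. In all 5 both Jagged1 libraries lay on one side of both vector libraries, 3 lower and 2 higher, against 29.1% of all tested genes on either side. The members were picked with earlier results of these data known, so these counts are a description. The components did not share a direction, and nor did the 2 inhibitor genes. Plau, Plaur and the inhibitor gene Serpinb2 had lower values in Jagged1 cells, and the extracellular inhibitor gene Serpine2 had higher values.

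**Figure D1:**
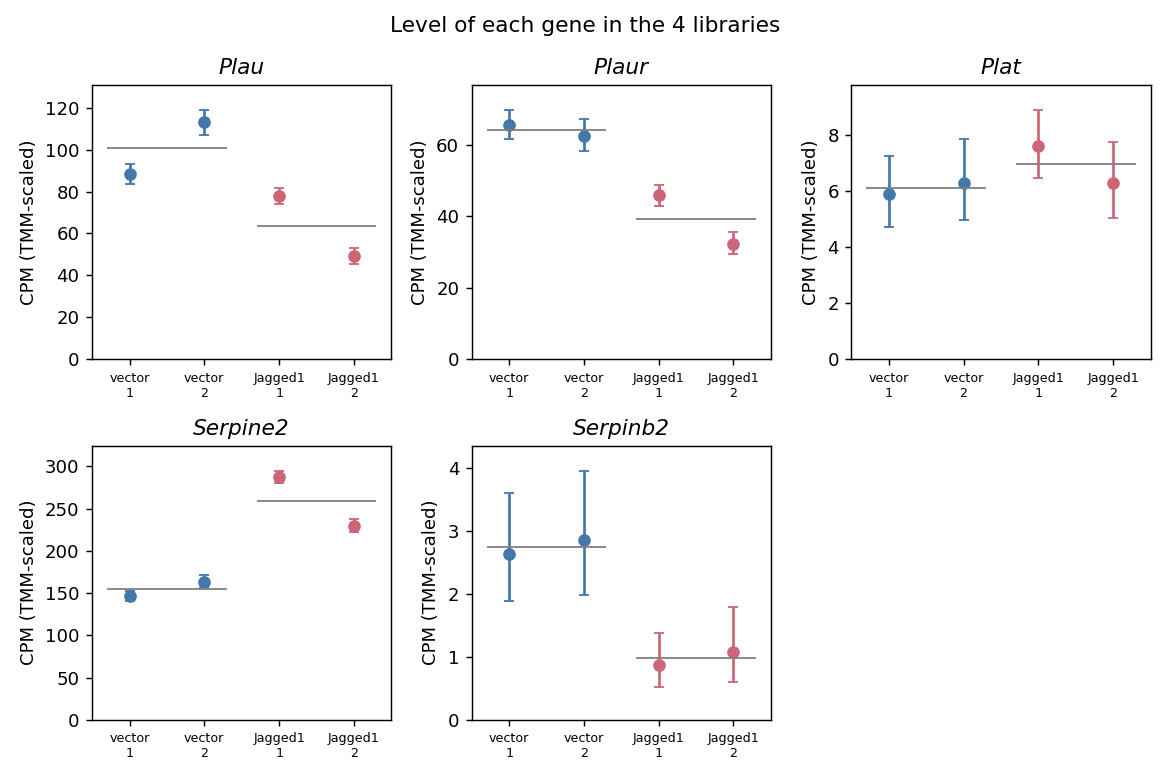
Level of the 5 members in each library, in TMM-scaled CPM on axes that start at 0. Blue points are vector and red points Jagged1 libraries, bars are exact 95% Poisson intervals that cover counting error only, and grey lines are the means of 2 libraries. Serpine2 lies between 147 and 163 CPM in vector and between 230 and 287 CPM in Jagged1 libraries, and Plaur between 62.7 and 65.7 CPM in vector and between 32.4 and 45.9 CPM in Jagged1 libraries.

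Plau, the urokinase gene, was at 88.3 and 113 CPM in vector 1 and 2 and at 77.7 and 49.2 CPM in Jagged1 1 and 2. Both Jagged1 libraries were below both vector libraries, but the gap between vector 1 and Jagged1 1 was small, and Jagged1 2 was the lowest. Means were 101 ± 17.7 CPM (vector) and 63.4 ± 20.2 CPM (Jagged1; SD, n = 2 per line), a log2 fold change of -0.67 ± 0.27 (SE; edgeR adjusted p = 1). Jagged1 2 decided much of this size. Without Jagged1 2 the log2 fold change was -0.37, and without Jagged1 1, leaving Jagged1 2 as the only Jagged1 library, it was -1.03 and passed the threshold (edgeR adjusted p = 0.0292). In that fit 1 library stands for the line and is assumed to vary like the other group, and 193 genes of 13957 (1.38%) passed, 0.365% as lower.

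Plaur, the urokinase receptor gene, was at 65.7 and 62.7 CPM in the vector libraries and at 45.9 and 32.4 CPM in the Jagged1 libraries. The vector libraries were close together, and both Jagged1 libraries were lower, again with Jagged1 2 lowest. The mean was 64.2 ± 2.13 CPM in vector against 39.2 ± 9.55 CPM in Jagged1 cells (SD, n = 2 per line), a log2 fold change of -0.71 ± 0.21 (SE; edgeR adjusted p = 1). It too passed only without Jagged1 1, at -0.99 (edgeR adjusted p = 0.0411), and stood at -0.48 without Jagged1 2. Plaur is annotated with 6 transcripts, among which a count per gene does not distinguish membrane-bound from soluble receptor forms.

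The ratio of urokinase to its receptor overlapped between the 2 lines. Per kilobase of exon, Plau was 1.49 and 2.0 times the level of Plaur in vector 1 and 2 and 1.87 and 1.68 times in Jagged1 1 and 2. Both Jagged1 values lay between the vector values.

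Plat, the gene of the other plasminogen activator, was low and nearly level. It was read at 5.88 and 6.27 CPM in vector and at 7.60 and 6.28 CPM in Jagged1 libraries, from 77 to 157 counts per library. Jagged1 2 exceeded vector 2 by less than the counting error, so the order of the libraries carries little here. The log2 fold change was 0.19 ± 0.28 (SE; edgeR adjusted p = 1), which was smaller than its error, and it lay between 0.05 and 0.32 when single libraries were left out.

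Serpine2 encodes protease nexin-1, a secreted and matrix-bound serpin that inhibits thrombin, urokinase and plasmin. It was at 147 and 163 CPM in the vector libraries and at 287 and 230 CPM in the Jagged1 libraries. Both Jagged1 libraries were well above both vector libraries, and the distance between the lines exceeded the distance within either. The mean was 155 ± 11.6 CPM (vector) against 259 ± 40.4 CPM (Jagged1; SD, n = 2 per line). This gave a log2 fold change of 0.74 ± 0.18 (SE), a 1.67-fold difference with an edgeR adjusted p of 0.914. Of all tested genes 0.744% had a smaller p and 96.0% a lower log2 fold change. Leaving out single libraries kept the value between 0.57 and 0.89, with 0 of these 4 fits past the threshold. The higher Serpine2 level was in Jagged1 1, and without Jagged1 2 the log2 fold change was 0.89.

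Serpinb2 encodes plasminogen activator inhibitor type 2, an inhibitor of urokinase that is mostly kept inside the cell. It was the member with the largest log2 value and the fewest counts. The libraries held 40 and 35 counts in vector and 18 and 15 in Jagged1 cells, or 2.64, 2.85, 0.871 and 1.08 CPM in that order. The exact 95% Poisson intervals, which cover counting error only, ran from 1.89 to 3.6 and from 1.99 to 3.96 CPM in vector and from 0.516 to 1.38 and from 0.606 to 1.79 CPM in Jagged1 cells. The intervals of the 2 lines did not meet. The mean was 2.75 ± 0.145 CPM in vector against 0.977 ± 0.15 CPM in Jagged1 cells (SD, n = 2 per line), a log2 fold change of -1.49 ± 0.42 (SE; edgeR adjusted p = 1). It stayed between -1.34 and -1.65 when single libraries were left out, and 0 of these 4 fits passed the threshold.

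**Figure D2:**
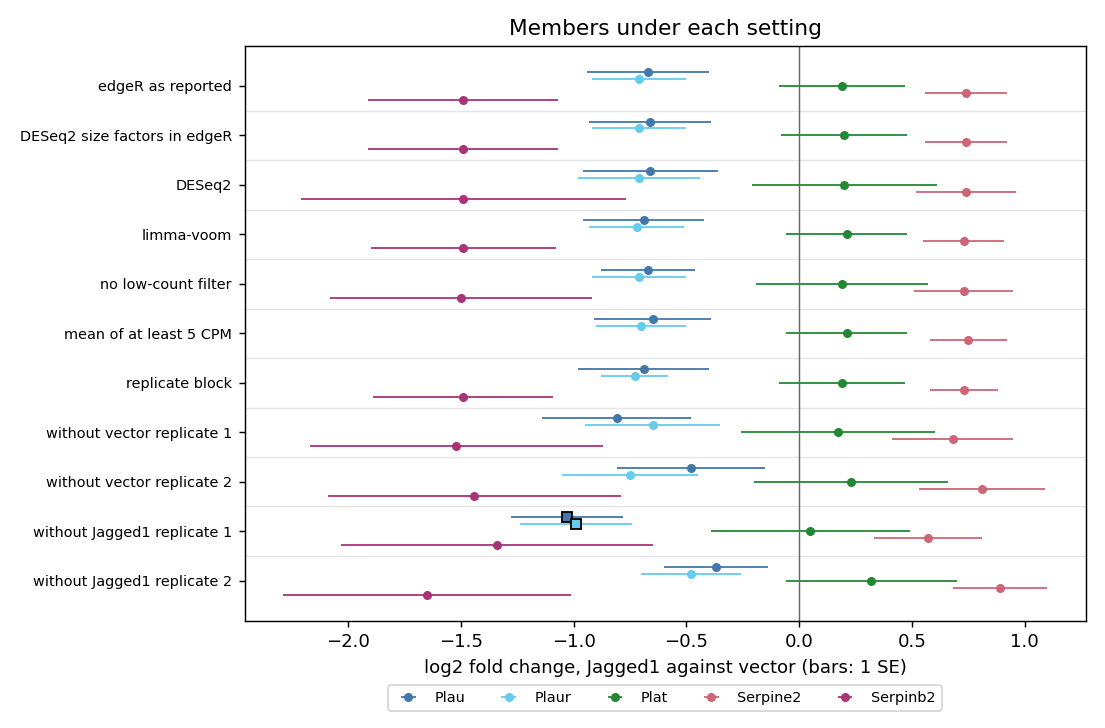
Log2 fold change of each member, Jagged1 against vector, as reported and under each other setting, with bars of 1 SE. Squares with a black edge mark an adjusted p under 0.05, which only Plau (-1.03) and Plaur (-0.99) have, both without Jagged1 1, and Serpinb2 has no value at a mean of at least 5 CPM.

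Levels were compared between genes per length, taken as all annotated exons of a gene merged over its transcripts. That length was 8287 bases for Serpine2, 6241 for Plat, 2617 for Plaur, 2367 for Plau and 2349 for Serpinb2. Which transcripts were present was not measured, and the order depends on this choice of length. In vector cells the order, in mean CPM per kilobase of exon, was Plau at 42.6 ± 7.48, Plaur at 24.5 ± 0.814, Serpine2 at 18.7 ± 1.41, Serpinb2 at 1.17 ± 0.0619 and Plat at 0.974 ± 0.0438 (SD, n = 2). The library values of neighbours in this order did not overlap, but Serpinb2 and Plat differed by less than their counting error. In Jagged1 cells Serpine2 came first at 31.2 ± 4.88, then Plau at 26.8 ± 8.53, Plaur at 15.0 ± 3.65, Plat at 1.11 ± 0.149 and Serpinb2 at 0.416 ± 0.0639 CPM per kilobase (SD, n = 2). There the libraries of Serpine2 and Plau overlapped, and those of the other neighbours did not.

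The ratio of Serpine2 to Plau differed between the lines in these libraries, without a test. Within each library, Serpine2 stood at 0.475 and 0.412 times Plau per kilobase in vector 1 and 2 and at 1.06 and 1.34 times in Jagged1 1 and 2. The ratio was above 1 in both Jagged1 libraries and below it in both vector libraries. Where it stands against 1 depends on the merged exon lengths. In CPM without length, Serpine2 was above Plau in all 4 libraries, at 147 and 163 against 88.3 and 113 in vector. That the ratio of these 2 genes was higher in Jagged1 libraries does not depend on length. It is the pattern their separate values imply. With Serpine2 and Serpinb2 summed over Plau and Plat summed, the ratio was 0.493 and 0.428 in vector and 1.03 and 1.3 in Jagged1 libraries, a mean of 0.461 ± 0.0458 against 1.16 ± 0.189 (SD, n = 2 per line). Serpine2 and Plau made up most of these sums, so this ratio is close to a repeat of theirs. Serpinb2, which was lower in Jagged1 cells, averaged only 1.17 (vector) and 0.416 (Jagged1) CPM per kilobase. Plat averaged 0.974 and 1.11. No test was run on these ratios. An exact two-sided permutation test of 2 libraries against 2 cannot go below p = 0.333. They compare RNA levels and not the balance of the proteins.

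**Figure D3:**
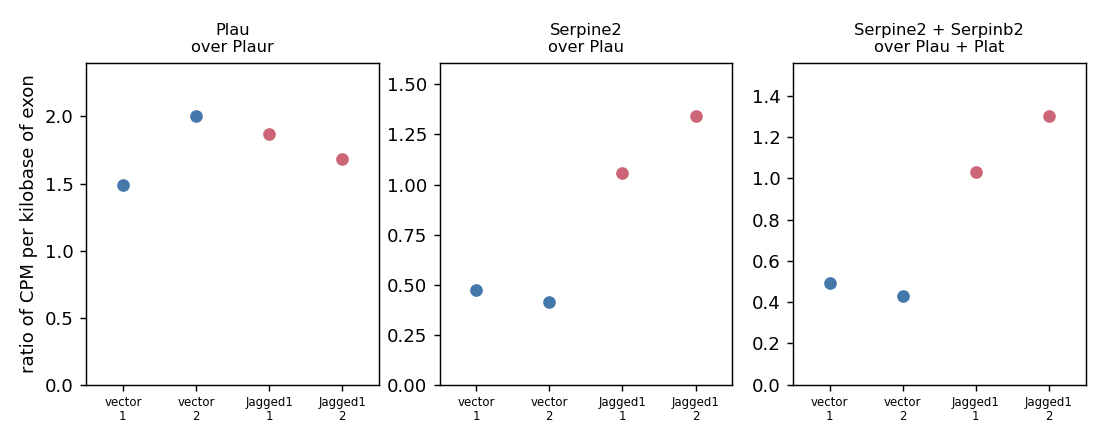
Ratios of CPM per kilobase of exon within each library, on axes that start at 0, with vector libraries in blue and Jagged1 libraries in red. Plau over Plaur stays between 1.49 and 2.0 in all 4 libraries, while Serpine2 over Plau is 0.475 and 0.412 in vector and 1.06 and 1.34 in Jagged1 libraries.

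Plasminogen itself was not detected in the tumour cells. Plg had 0 counts in all 4 libraries, and a count of 0 allows a level of up to 0.145 to 0.244 CPM, depending on the library. Over the other genes of the plasminogen system, a list of 27 with binding proteins, clearance receptors, integrins and the hepatocyte growth factor axis, 16 were tested and 0 passed in either direction. Values were positive in 9 and negative in 7, with a median log2 fold change of 0.05, beside a median of -0.003 over all tested genes. In 2 of the 16 both Jagged1 libraries exceeded both vector libraries, and in 0 both were below, where 13.9% and 15.1% of all tested genes did so. These 2 were Itgb3 and Met. Itgb3, the beta chain of a vitronectin receptor, was at 1.39 and 1.55 CPM in vector and at 15.3 and 4.19 CPM in Jagged1 libraries, a log2 fold change of 2.73 ± 0.68 (SE; edgeR adjusted p = 0.925). Jagged1 1 set that size, since the value was 1.51 without Jagged1 1 and 3.38 without Jagged1 2 (edgeR adjusted p = 0.00982). DESeq2, which called 0.353% of its genes, also called Itgb3 (adjusted p = 0.0209), as did edgeR without the low-count filter (adjusted p = 5.94e-07), which called 0.686%. The fit without Jagged1 2 called 0.352%. Met, the receptor of hepatocyte growth factor, averaged 364 ± 29.8 CPM (vector) against 415 ± 35.9 CPM (Jagged1) (SD, n = 2 per line). Its log2 fold change was 0.19 ± 0.16 (SE; edgeR adjusted p = 1), and was 0.29 and 0.10 without vector 1 or vector 2 and 0.09 without Jagged1 1.

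Lrp1, the endocytic receptor that clears protease and serpin complexes, is named here because its values were seen to differ. It was at 48.3 and 73.9 CPM in vector and 62.0 and 251 CPM in Jagged1 libraries. Only Jagged1 2 was high, the library with the raised collagen counts, and the log2 fold change of 1.35 ± 0.65 (SE; edgeR adjusted p = 1) became 0.03 without it. Without Jagged1 1 it was 2.04 (edgeR adjusted p = 2.85e-05).

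Among 58 symbols of the Serpin family in the table, 24 were at 0 in all libraries and 13 were tested, Serpine2 and Serpinb2 included. None passed, 7 were positive and 6 negative, and the median log2 fold change was 0.09. Other serpins of high CPM were Serpinh1, a collagen chaperone that inhibits no protease, Serpinb6a, Serpinb5, also called maspin, and Serpina3h. Serpinh1 averaged 462 ± 22.3 CPM (vector) against 491 ± 16.7 CPM (Jagged1), with a log2 fold change of 0.09 ± 0.15 (SE; edgeR adjusted p = 1; SD, n = 2 per line). It was, with Serpine2, 1 of the 2 tested serpins with both Jagged1 libraries above, and Serpinb2 was the 1 with both below. These are 2 and 1 of 13, near or under the 13.9% and 15.1% of all tested genes. Serpinb6a and Serpinb5 stood at -0.18 ± 0.17 and -0.01 ± 0.28 on the log2 scale, and Serpina3h at 0.51 ± 0.41 (SE). Serpina3h was at 35.0, 34.7 and 29.0 CPM in vector 1, vector 2 and Jagged1 1 and at 70.8 CPM in Jagged1 2. Its value was 1.02 without Jagged1 1 (edgeR adjusted p = 0.0183) and -0.26 without Jagged1 2. Its close copy Serpina3g, named after its values were seen, was likewise high in Jagged1 2 only, with 21, 36, 21 and 264 counts in vector 1, vector 2, Jagged1 1 and Jagged1 2, a log2 fold change of 2.21 ± 1.27 (SE; edgeR adjusted p = 1) that was 3.16 without Jagged1 1 (edgeR adjusted p = 7.65e-05) and -1.07 without Jagged1 2. Serpina3 genes are near-identical copies, and how reads were divided among them is uncertain.

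**Figure D4:**
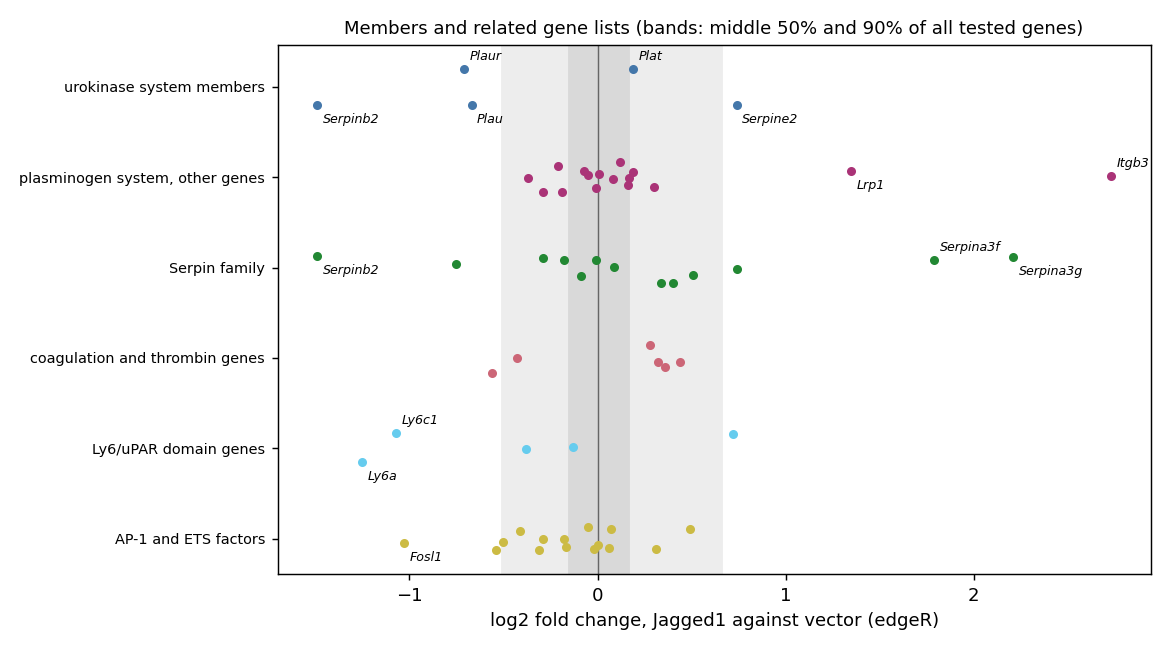
Log2 fold change, Jagged1 against vector, of the tested genes of the member list and of 5 related lists, 1 point per gene, jittered vertically. The grey bands span the middle 50% (-0.15 to 0.17) and 90% (-0.51 to 0.66) of all tested genes. Plau, Plaur, Serpine2 and Serpinb2 lie outside the wider band and Plat inside it.

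Thrombin is a target of Serpine2, and the genes of coagulation were read for that reason. Of 16 listed, 15 were in the table and 6 were tested, with 0 past the threshold, 4 positive, 2 negative and a median log2 fold change of 0.30. F2, which encodes thrombin's precursor, had 0 counts in all 4 libraries and was not tested. Both Jagged1 libraries were above both vector libraries in 1 of the 6 and below them in 1. The shares over all tested genes were 13.9% and 15.1%. F3, tissue factor, was above in both Jagged1 libraries at 98.0 and 93.9 CPM against 67.8 and 90.5 CPM in vector, with a log2 fold change of 0.28 ± 0.19 (SE; edgeR adjusted p = 1) that was 0.11 without vector 1 and 0.49 without vector 2. Procr, the protein C receptor, was below in both at 5.27 and 7.37 CPM against 9.65 and 8.96 CPM, at -0.56 ± 0.29 (SE; edgeR adjusted p = 1) and -0.34 without Jagged1 1.

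Plaur belongs to a family of proteins with Ly6/uPAR domains, of which 5 of 20 listed were tested. None passed, 4 were negative, and the median log2 fold change was -0.38. Ly6e, an interferon-responsive member, was at 1890 and 1960 CPM in vector and 1370 and 1600 CPM in Jagged1 libraries (log2 fold change -0.38 ± 0.17, SE; edgeR adjusted p = 1). Ly6a, the stem cell antigen Sca-1, was at 334 and 222 CPM in vector and 51.2 and 184 CPM in Jagged1 libraries. Its log2 fold change of -1.25 ± 0.60 (SE; edgeR adjusted p = 1) was -0.60 without Jagged1 1 and -2.44 without Jagged1 2 (edgeR adjusted p = 0.018). Ly6a and Ly6e were the 2 of 5 with both Jagged1 libraries below, where 15.1% of all tested genes were.

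AP-1 and ETS factors are known to act on the regulatory regions of Plau and Plaur. All 15 listed genes were tested, 0 passed in either direction, 11 were negative and the median log2 fold change was -0.17. Both Jagged1 libraries were below both vector libraries in 6 of 15 and above in 0, where 15.1% and 13.9% of all tested genes did so. The 6 were Fosl1, Jund, Junb, Fosl2, Elk3 and Fosb. Fosl1 was at 31.4 and 32.5 CPM in vector and 19.0 and 12.2 CPM in Jagged1 libraries, a log2 fold change of -1.03 ± 0.25 (SE; edgeR adjusted p = 0.923). The Fosl1 value was -1.39 without Jagged1 1 and -0.75 without Jagged1 2. It passed without the low-count filter (edgeR adjusted p = 0.00543), a setting that called 0.686% of its genes. Whether any of these factors bears on the values of Plau or Plaur was not tested. Jund stood at -0.50 ± 0.16 and Junb at -0.29 ± 0.14, while Fos averaged 14.6 ± 1.31 CPM (vector) and 14.4 ± 1.40 CPM (Jagged1; SD, n = 2 per line).

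Of the 5 members, 3 had an entry among the RefSeq promoter sequences (GRCm38.p6): Plaur, Serpine2 and Serpinb2. Whether upstream letters bear on the values of these genes was not tested. The sequences of these 3 are shown because Plau and Plat had no entry. Each runs 5′ to 3′ on the gene's strand over the 250 bases before a start of transcription in RefSeq, with capitals marking the AP-1 motif TGANTCA and the TATA box TATAAA. The Serpine2 window precedes 1 of several annotated starts and lies inside the gene's annotated span, which reaches further upstream. In Serpine2 the last 31 bases are left out, since the GENCODE M21 annotation places them in an exon. Serpinb2 has a further entry with a later start, which is not shown.
Plaur, chr7:24462233-24462482, plus strand: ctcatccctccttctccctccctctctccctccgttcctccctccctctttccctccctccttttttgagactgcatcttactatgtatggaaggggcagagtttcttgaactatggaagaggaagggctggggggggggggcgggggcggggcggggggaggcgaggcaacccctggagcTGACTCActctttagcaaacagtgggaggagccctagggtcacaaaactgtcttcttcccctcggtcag
Serpine2, chr1:79858697-79858915, minus strand: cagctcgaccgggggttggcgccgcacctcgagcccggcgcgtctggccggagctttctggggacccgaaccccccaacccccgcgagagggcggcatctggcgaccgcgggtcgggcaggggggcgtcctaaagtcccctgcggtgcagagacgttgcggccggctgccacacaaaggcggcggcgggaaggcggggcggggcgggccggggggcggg
Serpinb2, chr1:107511173-107511422, plus strand: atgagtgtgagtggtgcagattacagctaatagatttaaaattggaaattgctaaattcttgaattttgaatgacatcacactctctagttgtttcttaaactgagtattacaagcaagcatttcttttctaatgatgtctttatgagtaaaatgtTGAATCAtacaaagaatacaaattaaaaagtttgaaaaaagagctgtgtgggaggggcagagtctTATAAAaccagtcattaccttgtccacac
The AP-1 motif was searched once per position, as a palindrome with any base in the middle. Counted from the start, it stood at -69 in Plaur as TGACTCA and at -94 in Serpinb2 as TGAATCA. The motif was not in the Serpine2 window. It is in 6.75% of all 32851 windows of this length. TATAAA, searched on both strands, was at -29 in Serpinb2 and not in the windows of Plaur or Serpine2, and 12.4% of all windows hold it. The GC box GGGCGG, on either strand, occurred 6 times in the full Serpine2 window, 3 times in Plaur with overlaps and 0 times in Serpinb2, against 32.7% of windows with at least 1. The core letters bound by RBPJ, the DNA-binding partner of Notch, TGGGAA on either strand, were in none of the 3 windows and are in 21.6% of all. The ETS core, on either strand, occurred 4 times in Plaur, 2 times in the full Serpine2 window and 0 times in Serpinb2. It is in 64.1% of all windows. Plaur and Serpinb2 had lower values in Jagged1 cells and Serpine2 higher values, and no motif was tested for a bearing on them. The NF-kB and CRE motifs, also searched, were in none of the 3 windows and are in 1.21% and 1.55% of all. GC content was 59.6% for Plaur, 78.8% for Serpine2 and 32.4% for Serpinb2, beside a median of 52.4% over all windows. These matches are letters in a window, and no binding was measured here.

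In the GENCODE M21 annotation of GRCm38, the build named by the submitters, all 5 members are protein-coding genes. Plau lies on chromosome 14 at 20836660 to 20843385, Plaur on chromosome 7 at 24462484 to 24475968 and Plat on chromosome 8 at 22757727 to 22782844, all on the plus strand. Both serpins are on chromosome 1, Serpine2 at 79794197 to 79861180 on the minus strand and Serpinb2 at 107511423 to 107535478 on the plus strand. The table gives symbols only, and the positions were matched by symbol. Serpinb2 overlaps Serpinb10 on the same strand, and Serpinb10 was at 0 in all 4 libraries. No other member overlaps an annotated gene.

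Protein-coding neighbours were read to see whether the values were shared along the chromosome. Beside Plau, Camk2g averaged 43.2 CPM (vector) and 43.0 CPM (Jagged1) and Vcl at 141 CPM in both (means of 2 libraries). Beside Serpine2, Mrpl44 was at 30.0 and 29.2 CPM, and Fam124b had 0 counts in all libraries. Beside Serpinb2, Serpinb8, a clade B serpin 54528 bases away, averaged 9.02 CPM (vector) and 11.4 CPM (Jagged1), with overlapping libraries, and Serpinb7 had 0 counts. Beside Plaur, Cadm4 was at 29.9 and 42.9 CPM with overlapping libraries, and Irgc1 had 0 counts. Beside Plat, Ikbkb averaged 95.2 CPM (vector) and 103 CPM (Jagged1), and Ap3m2 averaged 15.0 and 14.3 CPM. Ikbkb was the 1 neighbour with both Jagged1 libraries on one side, where 29.1% of all tested genes were. None of the tested neighbours passed the threshold.

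The genes most like each member over the 4 libraries were found among 9347 tested genes with a mean of at least 10 CPM, by the root mean square difference of centred log2 CPM. With 4 libraries, of which 2 share a line, such likeness is a description. Nearest to Plau were Dusp8, a phosphatase of MAP kinases, at a difference of 0.073, and Adamts1, a secreted metalloprotease, at 0.11. Dusp8 was at 59.1 and 73.0 CPM in vector and 48.3 and 28.7 CPM in Jagged1 libraries. Nearest to Plaur were Dusp5, a phosphatase of ERK, at 0.034 and the deubiquitinase gene Otud1 at 0.035. Dusp5 was at 33.8 and 33.5 CPM in vector and 23.3 and 16.2 CPM in Jagged1 libraries. Nearest to Serpine2 were Tmem64, at 0.028, and the sialyltransferase gene St6gal1, at 0.06. St6gal1 was at 37.0 and 41.3 CPM in vector and 67.7 and 60.9 CPM in Jagged1 libraries. Nearest to Serpinb2 were Adam8, a membrane metalloprotease, at 0.11, and Ifit3, an interferon-stimulated gene, at 0.12. Ifit3 was at 195 and 188 CPM in vector and 76.6 and 75.6 CPM in Jagged1 libraries, and Adam8 at 16.7 and 18.8 against 5.57 and 8.38 CPM. The edgeR adjusted p was 0.46 for Ifit3 and 0.914 for Adam8. Ifit3 passed with DESeq2 (adjusted p = 2.58e-08), without the low-count filter (8.57e-07) and without Jagged1 1 (0.00299) or Jagged1 2 (0.0364), and Adam8 passed without the low-count filter (0.00263). Nearest to Plat were Fancm, at 0.016, and Casp2, at 0.021, both nearly level between the lines.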

How the data were processed

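Poly(A) RNA of 4 libraries, 2 vector and 2 Jagged1, was grouped by sample title. The authors deposited 1 table of read counts by gene symbol, neither normalized nor pooled. Per the submitters' processing notes, the authors named STAR 2.6.0c, featureCounts 1.6.2 and mm10 (GRCm38). Which annotation and strand setting were used is not given in the sources used here. Genes overlapping on opposite strands could thus share reads.

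In R 4.3.3, edgeR 4.0.16 was used to filter (filterByExpr, minimum count 10), to compute TMM factors and to run the quasi-likelihood F test (robust, legacy), with Benjamini-Hochberg adjustment over 13299 genes and a threshold of 0.05. SE was derived from the log2 fold change and F. DESeq2 1.42.0, limma 3.58.1 (voom), other filters and scaling, a replicate block and leaving out each library were the alternatives. The tests were checked on simulated counts drawn with the same dispersion for every gene. They were thus not checked at the spread seen in these libraries. Exon lengths came from GENCODE M21, merged over all transcripts of a gene, with log2 CPM at a prior count of 2.

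Members and lists were chosen with earlier results of these data known. Named genes were the members, Jag1 and Plg. A result on a further gene of the rule is not reported here, and that gene is left out of the lists. Also named were genes of each list past the threshold or, with none, up to 6 with both Jagged1 libraries on one side, serpins among the 6 with the highest CPM, and 2 genes most like each member. Of the endothelial markers 1 was tested (Cdh5), and the 8 summed to 0.793, 2.93, 0.581 and 6.35 CPM in vector 1, vector 2, Jagged1 1 and Jagged1 2.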

Additional observations from a re-analysis of the deposited data

How the results depend on the processing

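Under all alternatives run, the 5 members kept the direction of their log2 fold changes, and 0 of them passed the threshold except Plau (-1.03) and Plaur (-0.99) without Jagged1 1. At a mean of at least 5 CPM, Serpinb2 has no value. With 1 library left out, Plau lay between -1.03 and -0.37, Plaur between -0.99 and -0.48, and Jag1 between 4.80 and 5.06, the last at 5.06 and 4.82 short of the threshold without vector 1 or vector 2. The number of genes past the threshold was 1 as reported, 47 with DESeq2, 169 without the low-count filter and between 0 and 193 with 1 library left out. At 0 genes, without vector 1 or vector 2, an arm of 1 library was assumed to vary like the other. With the replicate block 17 genes passed (7 higher, 10 lower), Ifit3 among them (adjusted p = 0.0353), with Plau at -0.69, Plaur at -0.73, Serpine2 at 0.73 and Serpinb2 at -1.49, and 0 members called. Same-numbered libraries deviated together (correlation 0.425 across 13299 genes), but with 2 pairs and no label that says so the numbers were not taken to pair the samples. Directions turned with 1 library left out for Serpinb5 (-0.44 to 0.32, and 0.00429 at a mean of at least 5 CPM), Serpina3h (-0.26 to 1.02) and Serpina3g (-1.07 to 3.16). The cause was not tested. Depth limits Serpinb2 most, at 15 to 40 counts per library.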
